A study of Rattus norvegicus with 9 samples.

Results

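The RANK, M-CSF and osteoprotegerin axis was examined in whole bone of the skull and the limb, through the 10 genes Tnfrsf11a (RANK), Tnfsf11 (RANKL), Tnfrsf11b (osteoprotegerin, OPG), Csf1 (M-CSF), Csf1r, Nfatc1, Calcr, Traf6, Itgb3 and Src. The members were the probe sets that the array annotation assigns to only 1 of these genes, 21 of the 31042 probe sets measured, and the 10 genes stood among 14217 genes with a probe set of their own. Total RNA came from male CD rats of about 110 g, with 4 arrays of skull bone (calvaria, the vault of the skull) and 5 arrays of limb bone (ulna, a long bone of the forelimb). The labels name no treatment at either site, and soft tissue, sutures and epiphyses were removed before extraction. According to the methods of the study RNA was taken from groups of rats rather than single animals, so each array stands for a pool and p-values measure only the spread between these pools.

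The titles put 5 arrays in the limb group, although a tissue field of limb 1, 2, 3 and 4 names the calvaria. Hoxa9, a gene of limb and trunk position, had signals of 1.82 to 4.8 on the 4 skull arrays and 60.4 to 79 on the 5 limb arrays, so the arrays followed their titles. Bone of both sites carried the osteoblast markers, with a mean log2 signal of that list of 11.78 to 12.10 on skull arrays and 11.34 to 11.64 on limb arrays. The list mean was thus higher in the skull without overlap, and all 7 measured genes had positive differences. Ibsp alone was called (1.06 ± 0.11, limma adjusted p = 0.000165), and Runx2 and Sp7 were not measured. The limb extracts held far more skeletal muscle RNA, with a list mean of 3.26 to 4.0 on skull arrays and 9.12 to 10.49 on limb arrays and 9 of 10 genes lower in the skull. Erythroid genes were lower in the skull as well (7 of 8 genes, 9.12 to 9.52 on skull arrays and 10.52 to 10.75 on limb arrays), as were neutrophil genes (4 of 6 genes, 9.29 to 9.80 and 10.45 to 10.74). Over all genes 4.47% were called lower in the skull. The part of any of these cell types in the results was not tested. In whole bone fewer cells of a type and less RNA per cell cannot be told apart.

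Osteoclasts, the cells that resorb bone, arise from monocyte precursors under the control of a pair of ligands made largely by osteoblast-lineage and stromal cells. M-CSF acts through the receptor tyrosine kinase Csf1r to keep precursors alive, whereas RANKL acts through RANK, the adaptor Traf6 and the transcription factor Nfatc1 to drive their differentiation. OPG is a soluble decoy that binds RANKL and keeps it from RANK. Calcr, Itgb3 and Src belong to the mature osteoclast, as the calcitonin receptor, the beta chain of the vitronectin receptor and a kinase needed for the ruffled border.

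The receptors of the axis and the decoy were higher in the skull, whereas the signal carriers inside the cell were not called. Tnfrsf11a, Tnfrsf11b, Csf1r and Calcr rose, each by its brightest probe set, and none of the 10 genes fell. The call asked for both a 2-fold difference and an adjusted p below 0.05 (limma, Benjamini-Hochberg over all probe sets). By this rule 6 of the 21 probe sets were called, all higher in the skull, against 6.24% of all probe sets called, with 2.89% higher and 3.36% lower. Counted by gene, 4 of 10 were higher, against 8.07% of all genes called and 3.59% called higher. The median log2 difference, skull minus limb, was 0.52 over the 21 probe sets and -0.01 over all probe sets. Skull arrays lay wholly above limb arrays for 8 of the 21, against 9.53% of all probe sets.

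**Figure D1:**
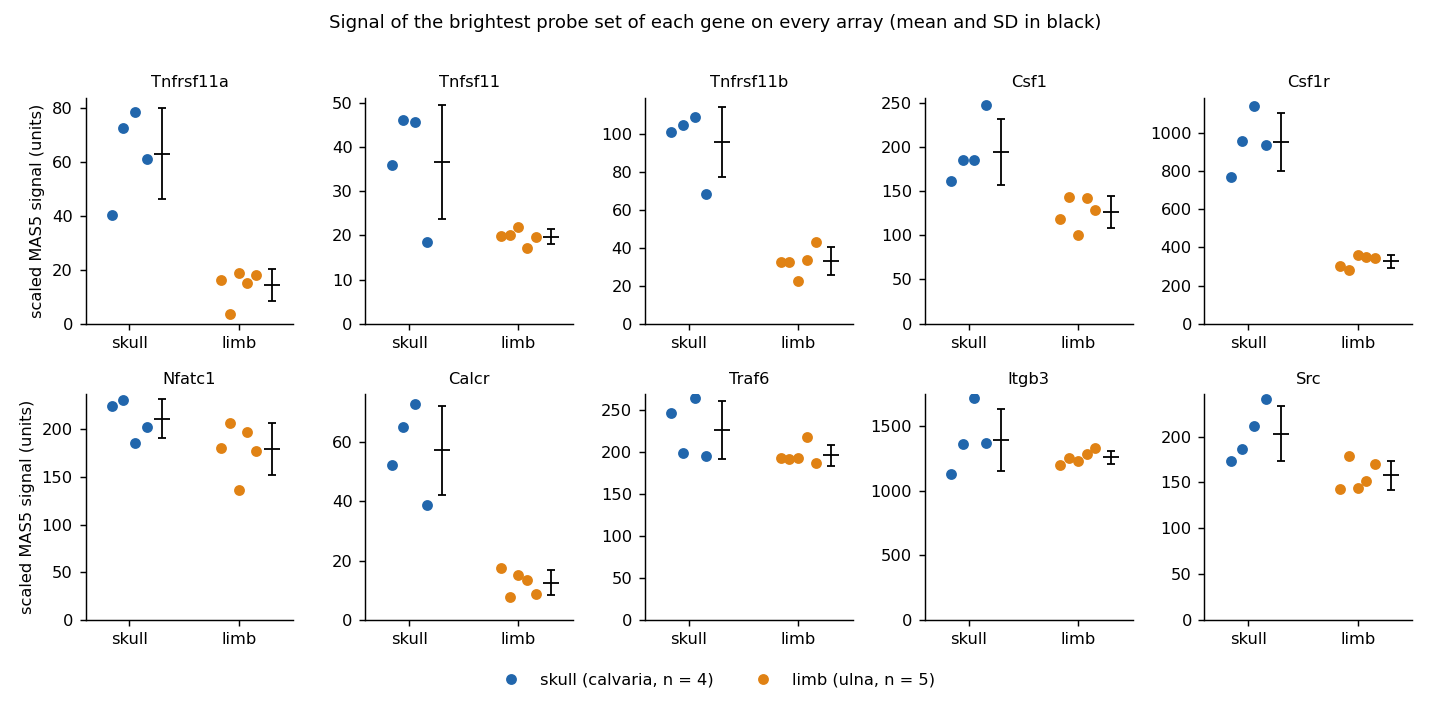
Scaled MAS5 signal (linear axis from 0, signal units) of the brightest probe set of each of the 10 genes, with a point for each array, skull (calvaria, n = 4) left of limb (ulna, n = 5) and the mean and SD in black. The sites do not overlap for Tnfrsf11a, Tnfrsf11b, Csf1, Csf1r and Calcr, whereas they overlap for the others.

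Tnfrsf11a encodes RANK, the receptor on osteoclast precursors. Its 1 probe set had signals of 40.3, 72.6, 78.4 and 61 on skull arrays 1 to 4, against 16.3, 3.72, 18.6, 15.1 and 18 on limb arrays 1 to 5. Every skull array was above every limb array, and limb 2 stood far below the other limb arrays. The means were 63.1 ± 16.8 in the skull (SD, n = 4) and 14.3 ± 6.1 in the limb (SD, n = 5). The log2 difference was 2.29 ± 0.49 SE (limma adjusted p = 0.00939), and it ranged from 1.85 to 2.49 when any 1 array was left out. Limb 2 lay below 8.34 units, the highest signal of bacterial tryptophan control probe sets, which have no target in rat RNA, so the limb level is near background.

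The ligand Tnfsf11 was not called on either of its 2 probe sets. The brighter, 1369282_at, gave 36, 46.2, 45.7 and 18.5 on the skull arrays, against 19.8, 20.2, 22, 17.1 and 19.6 on the limb arrays. Of the skull arrays 3 were above every limb array, and skull 4 lay among the limb arrays. The log2 difference was 0.81 ± 0.28 (95% interval 0.18 to 1.44, limma adjusted p = 0.0731). Without skull 4 it was 1.11 (adjusted p = 0.00296), which made it a call, so this array decides the result. The other probe set, 1369281_at, gave 32.6, 15, 22.4 and 26.5 in the skull, against 13.4, 20.3, 18.8, 17.9 and 18.3 in the limb. Here skull 2 was the low skull array and skull 4 was not, and the difference was 0.40 ± 0.26 (interval -0.18 to 0.99, adjusted p = 0.337). The probe sets thus placed different skull arrays among the limb arrays. The mean of both probe sets gave 0.60 for the gene (limma adjusted p = 0.0307), which passed the adjusted p and missed the fold.

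The decoy receptor Tnfrsf11b was higher in the skull. Its signals were 101, 105, 109 and 68.6 on the skull arrays, against 32.6, 32.4, 22.5, 33.7 and 43.3 on the limb arrays. The sites did not overlap, although skull 4 was well below the other skull arrays. Mean signals of 95.9 ± 18.6 in the skull and 32.9 ± 7.35 in the limb gave a skull:limb ratio of 2.92 and a log2 difference of 1.55 ± 0.21 (limma adjusted p = 0.000745). Tnfrsf11b, Calcr, Csf1r and Csf1 were among the genes that the study named from these same samples, so their differences here are no independent evidence of a direction.

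Within an array, the signal of RANKL was also set against that of OPG. The log2 ratio of Tnfsf11 (1369282_at) to Tnfrsf11b was -1.49, -1.19, -1.26 and -1.89 on the skull arrays, against -0.72, -0.68, -0.03, -0.98 and -1.14 on the limb arrays. The 4 skull arrays were below all 5 limb arrays, by a narrow margin between skull 2 and limb 5. The difference between the site means was -0.74, with SDs of 0.32 in the skull and 0.42 in the limb. With the other Tnfsf11 probe set it was -1.15, again with no overlap (-2.81 to -1.37 in the skull and -1.28 to -0.26 in the limb). The scaling of an array cancels in these ratios. A ratio between probe sets is no ratio of molecules, so only its difference between sites is read, as a description without a test.

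M-CSF was represented by 4 probe sets whose differences ranged from 0.21 to 1.82. On 1379631_at the signals were 74.1, 113, 124 and 158 in the skull, against 29.5, 37.1, 38, 31 and 26.2 in the limb. The sites were widely apart, and the log2 difference was 1.82 ± 0.21 (limma adjusted p = 0.000399). The brightest, 1380582_at, gave 161, 185, 185 and 248 in the skull, against 119, 143, 100, 142 and 129 in the limb. These sites did not overlap either, but the difference of 0.62 ± 0.15 (interval 0.29 to 0.94, adjusted p = 0.015) stayed under 2-fold.

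The remaining Csf1 probe sets were less clear. 1380583_s_at gave 55, 77.7, 107 and 111 in the skull, against 28.7, 41, 38.1, 54 and 42 in the limb. Skull 1 and limb 4 nearly met, and the difference of 1.08 ± 0.24 (adjusted p = 0.0125) lost its call without skull 3 (0.96), skull 4 (0.95) or limb 1 (0.96). In the naming of these arrays the suffix of this probe set marks probes shared with transcripts of another gene, so its signal is uncertain. The fourth, 1369354_at, ranged from 23.6 to 52 in the skull and from 16.5 to 40.1 in the limb, with a difference of 0.21 ± 0.36 (interval -0.60 to 1.03, adjusted p = 0.747). A direct test of 1 probe set's difference against another's, over the 20 pairs of probe sets that share a gene, gave no adjusted p below 0.106. For Csf1, 1379631_at exceeded the brightest by 1.20 (two-sided exact permutation p = 0.0159, adjusted 0.106). With 9 arrays this test could hardly pass, since a lone pair at its smallest p would have an adjusted p of 0.159 and 4 pairs at that p would be needed, so it says nothing on whether the probe sets agree. The limma intervals of 1379631_at (1.33 to 2.30) and of the brightest (0.29 to 0.94) do not overlap. Each interval was fitted apart although both probe sets were read on the same 9 arrays, so they are no test of the gap. Csf1 is thus called on 2 of 4 probe sets but not by its brightest. The mean of its 4 probe sets gave 0.93 (limma adjusted p = 0.00319), short of 2-fold.

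**Figure D2:**
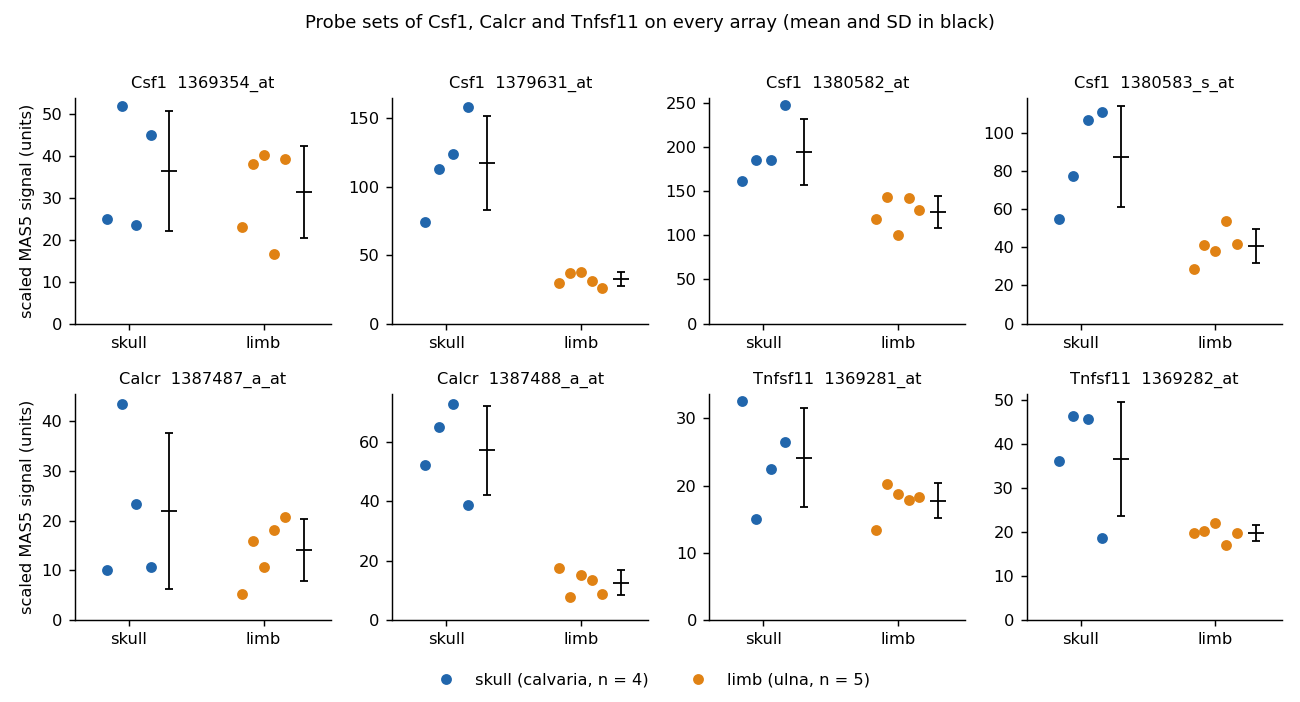
Scaled MAS5 signal (linear axes from 0, signal units) of the 4 probe sets of Csf1 and the 2 each of Calcr and Tnfsf11, a point per array, skull (n = 4) left of limb (n = 5), mean and SD in black. Csf1 1379631_at and Calcr 1387488_a_at separate the sites widely, whereas Csf1 1369354_at and Calcr 1387487_a_at overlap.

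Csf1r, the receptor for M-CSF and a defining gene of monocytes, macrophages and osteoclasts, had the smallest adjusted p among the members. Its signals were 770, 962, 1142 and 938 on the skull arrays, against 302, 282, 360, 348 and 347 on the limb arrays. The lowest skull array was more than 2-fold above the highest limb array. The log2 difference was 1.53 ± 0.12 (limma adjusted p = 5.6e-05), and means were 953 ± 152 in the skull and 328 ± 33.9 in the limb. Tissue macrophage markers moved less, with 1 of 9 genes called, where 8.07% of all genes were called. The median of the 9 was 0.07, and 5 of them had positive differences. Their list mean was 7.95 to 8.28 on skull arrays and 7.74 to 7.97 on limb arrays, and none of the markers was at the floor throughout a site. Cd68, a lysosomal protein of macrophages and osteoclasts, was the gene called (1216 ± 223 in the skull, 464 ± 60.4 in the limb). The macrophage surface gene Adgre1 had 94.8 ± 15.6 in the skull and 90.6 ± 16.3 in the limb (log2 difference 0.07 ± 0.16). Cd14 (0.96 ± 0.16, limma adjusted p = 0.0015) and Mrc1 (0.52 ± 0.09, adjusted p = 0.00203) were higher in the skull but under 2-fold.

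Calcr, through which calcitonin inhibits the osteoclast, was called on 1 of its 2 probe sets. On 1387488_a_at the signals were 52.4, 65, 72.8 and 38.7 in the skull, against 17.5, 7.64, 15, 13.6 and 8.85 in the limb. The sites were widely apart, with limb 2 below the level of the bacterial controls. The log2 difference was 2.22 ± 0.31 (limma adjusted p = 0.00093). On 1387487_a_at the signals were 10.1, 43.5, 23.4 and 10.7 in the skull and 5.16, 15.8, 10.7, 18.1 and 20.7 in the limb, which overlapped (0.52 ± 0.56, interval -0.74 to 1.79, adjusted p = 0.582). The difference on 1387487_a_at minus that on 1387488_a_at was -1.70, and their intervals overlap in part (1.52 to 2.92 for 1387488_a_at). The permutation test of that gap (two-sided exact p = 0.0556, adjusted 0.185) has the limit given for Csf1. The mean of both probe sets gave 1.37 for the gene (adjusted p = 0.00887).

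Upstream sequence is shown for Csf1r and Calcr, which were both called, and for the uncalled ligand Tnfsf11, since regulation of the axis by the factors PU.1 and NFAT is well known. RefSeq (build GRCr8) gave a window for 4 of the 10 genes, and 250 bases before the start are printed 5′ to 3′. Capitals mark matches on either strand to GAGGAA, the core of PU.1 sites, or to TGGAAA, the core of NFAT sites. The window of Csf1r is chr18:56834129-56834378 on the + strand, and its start lies 227 bases inside the annotated span of the gene. That of Calcr is chr4:32691076-32691325 and that of Tnfsf11 is chr15:60114480-60114729, both on the - strand.
Csf1r: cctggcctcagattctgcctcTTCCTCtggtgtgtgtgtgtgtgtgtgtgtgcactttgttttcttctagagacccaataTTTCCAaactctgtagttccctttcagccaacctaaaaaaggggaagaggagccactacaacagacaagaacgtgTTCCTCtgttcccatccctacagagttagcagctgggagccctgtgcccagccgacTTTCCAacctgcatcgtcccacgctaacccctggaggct
Calcr: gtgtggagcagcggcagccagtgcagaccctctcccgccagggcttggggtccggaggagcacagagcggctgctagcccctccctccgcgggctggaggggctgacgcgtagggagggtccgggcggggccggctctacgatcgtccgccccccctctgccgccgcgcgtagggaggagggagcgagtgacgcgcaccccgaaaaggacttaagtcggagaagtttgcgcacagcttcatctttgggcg
Tnfsf11: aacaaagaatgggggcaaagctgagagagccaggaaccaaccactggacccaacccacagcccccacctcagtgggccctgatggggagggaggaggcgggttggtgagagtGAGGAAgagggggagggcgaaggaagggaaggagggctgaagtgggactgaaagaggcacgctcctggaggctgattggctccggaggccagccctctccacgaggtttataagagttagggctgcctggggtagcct
Csf1r held 2 matches to the PU.1 core and 2 to the NFAT core, all on the opposite strand. Tnfsf11 held 1 match to the PU.1 core, and Calcr held none of either. The window of Src, not printed, held none either, but its start lies 33072 bases inside the annotated span of the gene. Of 33469 rat promoter windows of this length, 23.3% held the PU.1 core and 19.7% the NFAT core. None of the 4 windows held an AP-1 site (TGANTCA, 6.34% of all windows) or an MITF M-box (TCATGTG, 3.07%). A match of such short letters is a description of the window only.

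None of the carriers of the signal inside the cell was called. Nfatc1, the transcription factor that RANK signalling induces, gave 225, 231, 186 and 203 in the skull, against 180, 207, 136, 197 and 177 in the limb. The sites overlapped and the difference was 0.24 ± 0.12 (interval -0.03 to 0.52, limma adjusted p = 0.215). Traf6, the ubiquitin ligase that RANK recruits, had 4 probe sets with differences of -0.01 to 0.19 and adjusted p between 0.228 and 0.986. Its brightest, 1392660_at, had mean signals of 226 ± 34.7 in skull bone and 196 ± 12.3 in limb bone. The upper ends of the 95% intervals for Traf6 were 0.29 to 0.44, so a 2-fold rise lies outside all 4 of them.

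Itgb3 and Src, of the attachment and ruffled border of the mature osteoclast, were not called either. Itgb3 was bright at both sites, with 1126, 1358, 1715 and 1371 in the skull, against 1197, 1252, 1233, 1282 and 1332 in the limb. Skull 1 was below all limb arrays and the other skull arrays were above them, and the difference was 0.13 ± 0.11 (interval -0.12 to 0.37, limma adjusted p = 0.473). Itgb3 is also the beta chain of the platelet fibrinogen receptor. Megakaryocyte and platelet genes were lower in the skull in 7 of 7 cases, where 4.47% of all genes were called lower. Their list mean was 6.68 to 7.33 on skull arrays and 9.28 to 9.38 on limb arrays. Their part in the Itgb3 signal was not tested. Its platelet partner Itga2b had 137 ± 34.7 in the skull and 562 ± 54.4 in the limb, whereas its osteoclast partner Itgav had 647 ± 166 in the skull and 236 ± 44.1 in the limb (log2 difference 1.45 ± 0.19, adjusted p = 0.000407). The alpha chains thus moved in opposite directions around a beta chain that was not called.

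Src was measured by 4 probe sets, and none reached 2-fold. The brightest, 1389030_a_at, gave 173, 186, 212 and 241 in the skull, against 143, 179, 144, 152 and 170 in the limb (0.36 ± 0.11, limma adjusted p = 0.0491). 1373124_at gave 176, 181, 203 and 281 in the skull, against 96.5, 140, 113, 149 and 154 in the limb, with no overlap and a difference of 0.68 ± 0.18 (adjusted p = 0.0254). Both passed the adjusted p and missed the fold. 1368830_at had a difference of 0.52 ± 0.16 (adjusted p = 0.0517), and 1387352_at was near background, with mean signals of 4.11 ± 4.5 in skull bone and 5.57 ± 4.43 in limb bone. The mean of the 4 Src probe sets gave 0.30 (limma adjusted p = 0.192). Without the fold threshold, 9 member probe sets were higher in the skull and none was lower, against 9.59% of all probe sets higher there.

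**Figure D3:**
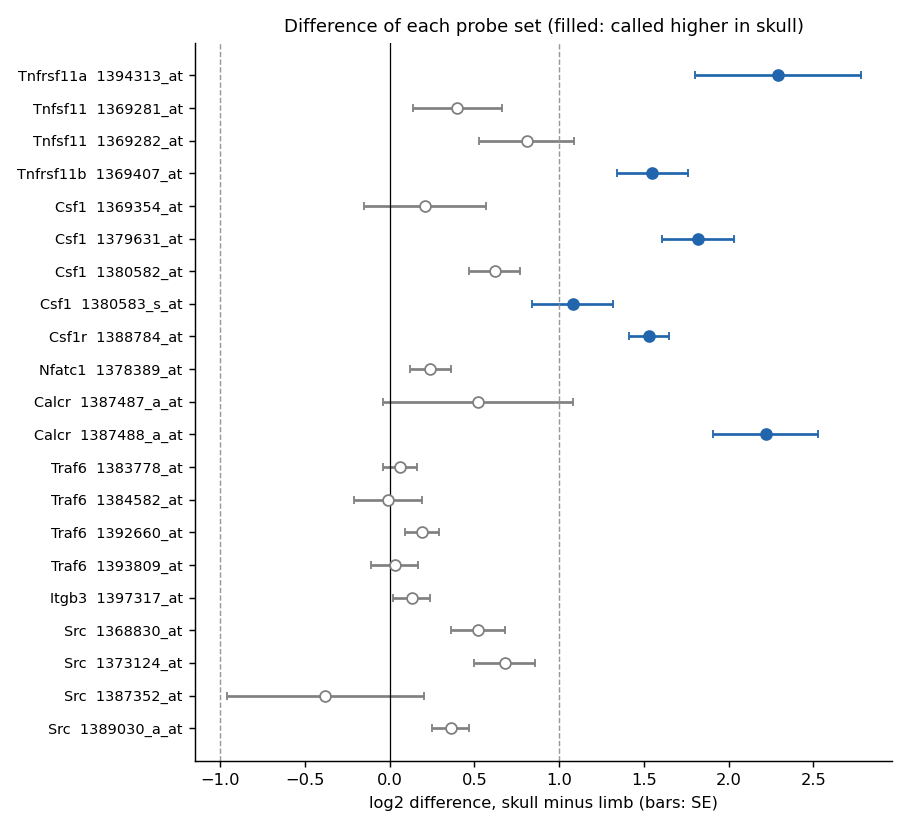
Log2 difference (skull minus limb, bars show SE) of each of the 21 probe sets, with filled points for those called higher in the skull and dashed lines at 2-fold. The 6 called probe sets belong to Tnfrsf11a, Tnfrsf11b, Csf1, Csf1r and Calcr, and all 4 probe sets of Traf6 lie near 0.

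The members, each by its brightest probe set, were also set against the mean of a list of 14 fusion and resorption genes on the same array. The list was mixed, with 5 genes called higher in the skull (Acp5, Ctsk, Mmp9, Clcn7 and Snx10) and others that ran the opposite way without reaching 2-fold, such as Car2 (-0.87 ± 0.09) and Cd47 (-0.67 ± 0.07). Its mean log2 signal was 9.43 to 9.69 on skull arrays and 8.79 to 8.89 on limb arrays. Relative to that mean, the log2 difference was 1.59 for Tnfrsf11a, 1.52 for Calcr, 0.85 for Tnfrsf11b and 0.83 for Csf1r, each without overlap between the sites. On the same scale the difference was -0.46 for Nfatc1, -0.51 for Traf6, -0.57 for Itgb3 and -0.34 for Src, and of these Traf6 and Itgb3 did not overlap. Tnfsf11 (0.10) and Csf1 (-0.09) lay near 0. The placing depends on the probe set, since the log2 difference of Csf1 was 0.62 on its brightest and 1.82 on 1379631_at. For Calcr it was 2.22 on its brightest and 0.52 on 1387487_a_at. The values relative to the list mean are descriptions without a test. They hold only against this mixed mean, since Snx10 (1.86 ± 0.19), Acp5 (1.71 ± 0.13) and Mmp9 (1.60 ± 0.12) themselves had log2 differences above those of Csf1r (1.53) and Tnfrsf11b (1.55).

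**Figure D4:**
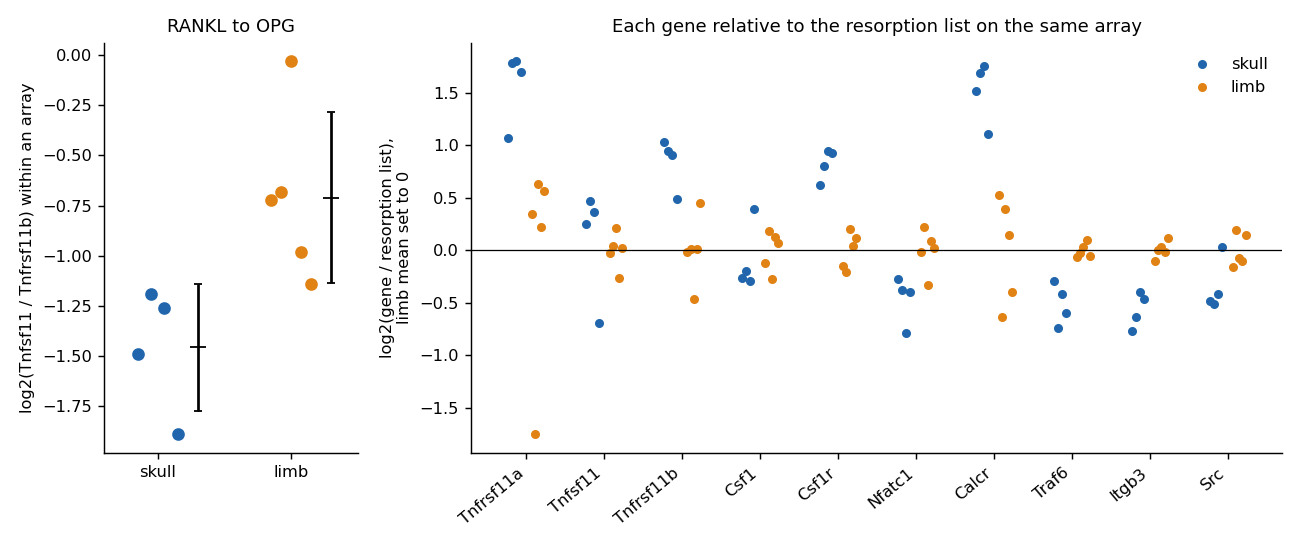
Left, log2 ratio of Tnfsf11 to Tnfrsf11b signal within each array, skull (n = 4) left of limb (n = 5), with mean and SD in black. Right, log2 ratio of the brightest probe set of each gene to the mean of the 14 resorption genes on the same array, with the limb mean set to 0, where Tnfrsf11a, Calcr, Tnfrsf11b and Csf1r lie above it in the skull and Traf6 and Itgb3 below.

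Across the 9 arrays the genes most like Csf1r in their log2 signal, among 9481 genes of at least median signal, were Slc39a13 (Pearson r = 0.995), Plekhb2 (0.993) and Vit (0.989). Slc39a13 is a zinc transporter. For Tnfrsf11b they were Ubtd2 (0.987), Rab38 (0.984) and Slc22a18 (0.984), and for Tnfrsf11a they were Tsku (0.976), Armcx6 (0.972) and Pea15 (0.969). The arrays share their site difference, and after removal of the site means r was 0.89 for Csf1r with Slc39a13, 0.89 for Tnfrsf11b with Ubtd2 and 0.94 for Tnfrsf11a with Tsku. Csf1 was closest to Tnks1bp1 (0.994, and 0.98 within sites), followed by Vat1 (0.978) and Nxn (0.962). Calcr was closest to Bmpr1a, a receptor for bone morphogenetic proteins (0.989, and 0.91 within sites), then to Yif1a (0.983) and Dlg5 (0.981). The ligand Tnfsf11 was most like Sec13 (0.982), the actin-capping gene Capg (0.980) and Nme1 (0.97), with 0.94 to 0.97 within sites. For the uncalled Nfatc1, Traf6, Itgb3 and Src the nearest genes were Bod1 (0.953), Ankib1 (0.977), the chaperone Hspa5 (0.952) and Trim8 (0.954). With 9 arrays and so many genes, such values describe these arrays only.

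The rest of the pathway was read from 8 lists that held 122 further measured genes. Of these, 20 were higher in the skull (16.4%, against 3.59% of all genes), 1 was lower and 101 were not called, with a median of 0.09 against -0.02 over all genes. The 122 and the 101 include Serpina1, a gene not on the lists that was wrongly matched to the listed Spi1. The counts are given list by list, and differences between lists were not tested. The regulators and partners of RANKL and OPG had 5 of 14 genes higher (median 0.88), and the fusion and resorption genes 5 of 14 (median 0.64). None of the 21 genes between RANK and the NF-kB and MAP kinases was called in either direction (median 0.03), where 8.07% of all genes were called, and its brightest genes were the kinase Mapk14 (-0.27 on the log2 scale) and the scaffold Sqstm1 (-0.29).

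Regulators of the ligands were among the genes that rose. Pth1r, the receptor for parathyroid hormone on osteoblasts, had signals of 1442 ± 290 in the skull and 489 ± 45.9 in the limb (log2 difference 1.54 ± 0.14, limma adjusted p = 6.1e-05). The syndecan Sdc1 (1.19 ± 0.16) and the ephrin receptor Ephb4 (1.00 ± 0.11) rose too, but Ephb4 lay at the threshold and lost its call without skull 3, skull 4, limb 2 or limb 3 (0.95 to 0.97). Vdr, the vitamin D receptor, had 50.1 ± 4.52 in skull bone and 11.8 ± 5.97 in limb bone (2.27 ± 0.42), with 2 limb arrays below the bacterial controls. Il6 was the remaining call, and its signals of 10.3 ± 2.17 in skull bone and 3.8 ± 5.24 in limb bone were near background. The call was lost without any 1 of the skull arrays or of limb 1, 2, 3 or 4 (limma adjusted p of 0.0722 to 0.107), without the intensity trend (0.0574) and with a floor at the 25th percentile (log2 difference 0.06). Lgr4, another receptor for RANKL, had 0.97 ± 0.16 and Tnfsf10 (TRAIL), another ligand of OPG, 0.91 ± 0.22, and neither reached 2-fold. Pth1r and Vdr were also among the genes the study named from these samples. So were Acp5, Ctsk, Mmp9, Mitf, Fos, Prdm1, Jdp2 and Nfatc4 of the other lists. Their differences here are no independent evidence either.

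The lists downstream of the receptors are read against the 3.59% of all genes that were called higher. In the M-CSF receptor list Mitf, a transcription factor of osteoclasts and melanocytes, was the 1 call of 13 genes (116 ± 25.4 in the skull and 42.9 ± 8.05 in the limb, 1.43 ± 0.17, limma adjusted p = 0.000293). The 13 include Serpina1 (-0.12 ± 0.41, not called), which a synonym wrongly put in the place of the listed Spi1. Spi1, the gene of PU.1, was thus not measured here. The other M-CSF receptor ligand, Il34, had 46.6 ± 16.8 in the skull and 24.1 ± 2.14 in the limb (0.90 ± 0.22, not called). Of 18 genes of ITAM costimulation and calcium 2 rose. Rcan1, a calcineurin inhibitor that NFAT itself induces, rose by 1.55 ± 0.15. The receptor Trem2 rose by 1.92 ± 0.50, with a mean signal of 22.1 ± 3.34 in skull bone and a limb mean of 6.83 ± 4.05, below the bacterial controls on 3 limb arrays, and was under 2-fold when 16 was added to each signal (0.75). The adaptor Tyrobp (0.73 ± 0.24) was not called. In this list the median was -0.01.

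Among 15 transcription factors and repressors around Nfatc1, Prdm1 (1.60 ± 0.23), Jdp2 (1.56 ± 0.17), Fos (1.42 ± 0.41) and Nfatc4 (1.09 ± 0.23) rose and none fell. Prdm1 represses inhibitors of osteoclast formation, and Jdp2 and Fos are AP-1 proteins. Fos lost its call without any of skull 1, 2 or 3 or limb 3, 4 or 5 (limma adjusted p of 0.0568 to 0.0716), and Nfatc4 without skull 4 (0.99) or limb 3 (0.92). Nfatc2 had 46.5 ± 4.32 in skull bone and 48.4 ± 4.18 in limb bone (-0.06 ± 0.11, not called). Within the NFAT family Nfatc4 was thus called and Nfatc1 and Nfatc2 were not.

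Of the 14 fusion and resorption genes, the phosphatase Acp5 (1.71 ± 0.13), the gelatinase Mmp9 (1.60 ± 0.12), cathepsin K (Ctsk, 1.43 ± 0.13), the chloride transporter Clcn7 (1.37 ± 0.13) and Snx10 (1.86 ± 0.19) rose. Acp5 had signals of 3932, 4694, 5619 and 4465 in the skull, against 1448, 1435, 1258, 1699 and 1270 in the limb. Carbonic anhydrase 2 (Car2), which osteoclasts share with red cells, had 1617 ± 193 in skull bone and 2946 ± 193 in limb bone (-0.87 ± 0.09, short of 2-fold). Erythroid genes were lower in the skull as well, and their part in the Car2 signal was not tested.

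In the integrin and Src list of 20 genes, Itgav, the docking protein Bcar1 (1.19 ± 0.11) and the actin-severing protein Gsn (1.15 ± 0.18) rose. Fermt3, an integrin activator of blood cells and platelets, fell by 1.02 ± 0.09, which was under 2-fold with the values as deposited (-0.97), with quantile normalization (-0.94) and without skull 3 (-0.96) or skull 4 (-0.98). The kinase Ptk2b, a partner of Src, had a difference of -0.03 ± 0.19. None of the 9 genes of the calcitonin receptor family and its ligands was called, where 8.07% of all genes were called. The brightest were Gnas (0.33 ± 0.08) and Ramp1 (-0.88 ± 0.10). Calca, which the study lists as higher in the skull, had a difference of -0.32 ± 0.71 by its brightest probe set. Its signals were 7.69 ± 4.64 in the skull and 11.5 ± 10.2 in the limb, with 3 arrays of each site below the bacterial controls.

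**Figure D5:**
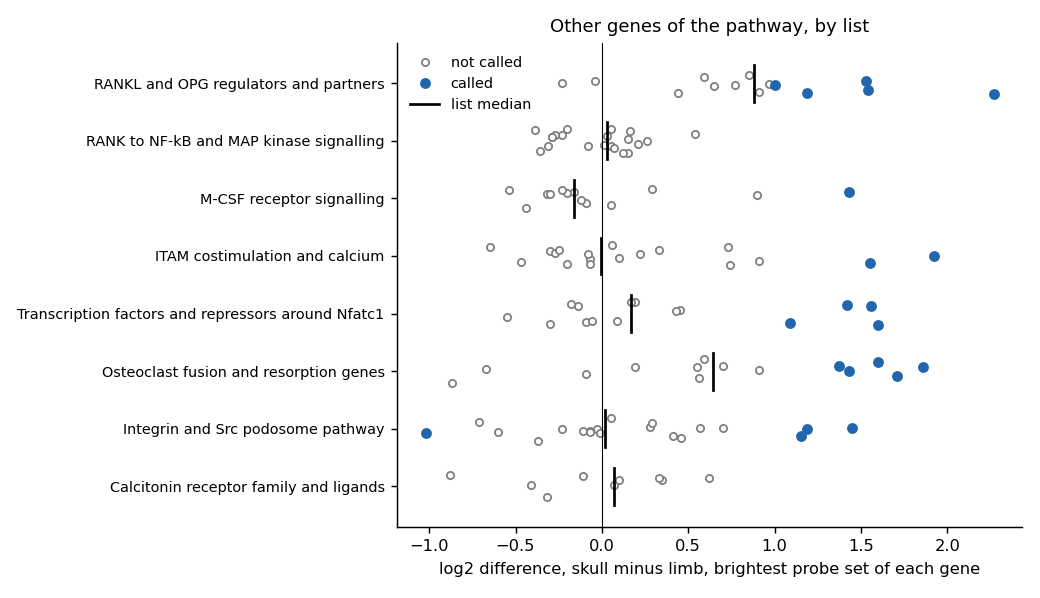
Log2 difference (skull minus limb) of each gene of the 8 pathway lists by its brightest probe set, with filled points for genes called in either direction and a black bar at each list's median. In the M-CSF receptor list a point of Serpina1 stands in the place of Spi1. Medians lie at 0.88 for the regulators and partners of RANKL and OPG and 0.64 for the resorption genes, and at 0.03 for the NF-kB and MAP kinase genes.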

How the data were processed

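Labelled RNA of 4 skull and 5 limb samples was hybridised to Affymetrix whole-genome rat arrays. The authors deposited linear MAS5 intensities, 1 value for each probe set on each array, and name the tool in the submitters' processing notes. Their trimmed mean was 100.027 to 100.03 on every array (without the lowest and highest 2%), so they had been scaled to a common target. Array medians were 33.01 to 36.59. Of 31099 probe sets 57 were controls. No detection calls were used here. The annotation gave 1 symbol for 20826 probe sets, several for 436 and none for 9780, and 20758 matched the RefSeq table of assembly GRCr8 by gene identifier.

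Each array was scaled to the mean of the array medians, given a floor of 2.51, the signal below which 10% of all values lay, and taken to log2. Signals in the text are scaled signals without the floor. Skull was compared with limb by limma 3.58.1 under R 4.3.3 (lmFit, and eBayes with an intensity trend), and the code was tested on simulated data. SE are those of the fit and intervals are at 95%. Gene counts took the brightest probe set of each gene, with p adjusted over those. The 20 pairs of probe sets of 1 gene were compared by two-sided exact permutation over 126 splits of the arrays (smallest p 0.00794), a test added after seeing the data. The rule for names took all members, in each pathway list the 3 called genes with the smallest adjusted p or the 2 brightest where none was called, and the 3 genes most like a member. Other genes named were chosen after their values were seen. Members, lists and tests were chosen with earlier results of these data known. Of 137 list entries 124 were measured, and no set test was run. Alternatives changed the scaling, the floor, the filter on dim probe sets, the variance model, the test, the pairing and the arrays. Ratios of 3' to 5' signal were 1.21 to 1.51 in the skull and 1.16 to 1.29 in the limb for Gapdh, and 1.68 to 2.05 and 1.49 to 1.81 for beta-actin. No 2 arrays were identical.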

Additional observations from a re-analysis of the deposited data

Results flagged for a closer look

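Among the 42 groups of values examined (each of the 21 probe sets at each site), 4 held an array far from the others of its site, and chance alone gives about 1 in 20 such groups. Tnfrsf11a on limb 2 had a signal of 3.72, against 15.1 to 18.6 on the other limb arrays. Tnfrsf11b on skull 4 had 68.6, against 101 to 109 on the other skull arrays. Traf6 (1392660_at) on limb 4 had 217, against 186 to 192 on the other limb arrays. Src (1387352_at) on skull 1 had 10.7, against 0.549 to 3.12 on the other skull arrays, all near background. Skull 4, the low array for Tnfrsf11b, was also the lowest skull array for Tnfsf11 (1369282_at, 18.5) and Calcr (1387488_a_at, 38.7), and the highest for Src (1389030_a_at, 241) and Csf1 (1380582_at, 248).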

How the results depend on the processing

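The calls of Tnfrsf11a, Tnfrsf11b, Csf1r and Calcr by gene were kept under all 18 alternatives that refitted the arrays. The count of member genes was 4 in each, except without skull 4 (5, with Tnfsf11), and 6 without the fold threshold. When 16 was added to each signal before the log2 instead of the floor, 1032 probe sets were called over the array against 1938. With 1 array left out, counts were 1716 to 2047 over all probe sets, 5 to 6 for member probe sets, 4 to 5 for member genes and 17 to 21 for pathway genes (21 with all arrays). Of the pathway genes called, 14 were called under all 18 alternatives. The call of Csf1 1380583_s_at also ended with that added 16 (0.85) and with array weights (0.96). Uncalled differences near 0 changed sign for 2 Traf6 probe sets. 1384582_at (-0.01) became 0.04 with the values as deposited, 0.01 with quantile normalization and with array weights, and ranged from -0.13 to 0.12 with 1 array left out (above 0 without skull 3, limb 1 or limb 4). 1393809_at (0.03) became -0.04 with array weights and ranged from -0.06 to 0.13 with 1 array left out (below 0 without skull 3, limb 1 or limb 3). Of 375 member values under alternatives, 359 kept their direction and side of the threshold. The methods take skull and limb bone from groups of rats without saying whether equal numbers mark the same group. Skull and limb arrays of the same number did not deviate together in every case (r of 0.12, -0.003, 0.021 and 0.124 for numbers 1 to 4). These r do not settle whether equal numbers share a group, and the main fit left the numbers unpaired. With replicate number as a block, which leaves out limb 5, 1571 probe sets, 6 member probe sets, 4 member genes and 20 pathway genes were called, and Trem2 lost its call (1.67, adjusted p = 0.067). Each skull array correlated best with the limb array of its number for numbers 1 and 4. Levels under about 8.34 units are not told from background, which limits Tnfrsf11a and Calcr in the limb.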
